A study of Mus musculus with 5 samples.

Results

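In the list of DNase I hypersensitive regions of double positive (DP) thymocytes, 3020 of 48320 regions, or 6.25%, were narrow sites beside a wide open region. A narrow site was a DNaseI region of the list's commonest width, exactly 1 bp more than 200 bp, and it counted as flanking when the gap to a DNaseI region of 500 bp or wider on its chromosome was 2 kb or less. The list held 12746 narrow sites (26.4% of all regions) and 14906 wide regions. Flanking sites made up 23.7% of the narrow sites, and the other 9726 narrow sites had no wide region within 2 kb. The flanking sites were chosen by width and position in the DNaseI list, so their widths, gaps and DNaseI scores are given as descriptions. The HEB and TCF1 lists played no part in that choice.

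DNase I cuts DNA where nucleosomes are displaced or loose, so promoters and enhancers in use show up as hypersensitive sites. A strong element is often accompanied by weaker accessible sites around it, and sequence-specific factors tend to sit in the accessible core. HEB, the product of Tcf12, is a basic helix-loop-helix factor of the E protein group and recognises E-box motifs. TCF1, the product of Tcf7, is an HMG-box protein. Both act in the development of thymocytes, and DP cells, which carry CD4 and CD8 together, are the stage at which the T cell receptor alpha chain gene is rearranged.

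The cells came from C57/BL6 mice aged 4 to 6 weeks, with no other allele or treatment named in the labels. Each of 5 assays had 1 sample, and 3 region lists, for DNaseI, HEB and TCF1, were used. The number of mice behind each sample is not given in the sources used here, and the lists hold no expression values against which the labelled cell type could be checked. With 1 library per assay there was no test between samples, so shares carry 95% Wilson intervals and differences of shares carry 95% Newcombe intervals. These intervals cover counting error only and treat regions as independent, although 651 flanking sites shared their nearest wide region with another flanking site. Sequencing depth is unknown. The lists held 4930 HEB regions, each as wide as a narrow site, and 3546 TCF1 regions of 183 bp, and a region carried a factor when it overlapped a region of that factor's list by at least 1 bp.

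Flanking sites were at the bottom of the DNaseI score range. The score is the authors' whole-number value per region, with no stated unit, and it started at 8 in this list. The median score was 8 among flanking sites (quartiles 8 and 9), 9 among the other narrow sites (8 and 9), 44 among wide regions (32 and 66) and 16 over all DNaseI regions (10 and 33). The lowest score, 8, was held by 1539 flanking sites (51.0%) and by 4756 other narrow sites (48.9%). Scores of 12 or more were held by 99 flanking sites (3.28%) and by 522 other narrow sites (5.37%). Narrow sites near and far from wide regions thus had nearly the same scores. The nearest wide region outscored its flanking site in all but 1 of 3020 pairs, with a median ratio of 5.38. This contrast follows largely from the rule, which pairs a narrow site with a wide region, and is a description only. Across the 3020 pairs, which all come from 1 library, Spearman's rho of the site's score was 0.002 with the score of its wide region and -0.019 with the gap. With 51.0% of the sites tied at the lowest score, there was little range left in which a relation could be seen.

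The 6 highest-scoring flanking sites, the last 2 of them tied, carried neither factor, and over all flanking sites only 0.795% carried one. The highest, on chromosome 19 from 45824105 to 45824305 (mm9), had a score of 32 and lay 650 bp from a wide region of 514 bp with a score of 22, the only pair in which the narrow site was not the lower. The next, on chromosome 15 from 72899503 to 72899703, had a score of 30 and lay 527 bp from a wide region of 1433 bp that carried TCF1 and had a score of 144. The others were on chromosome 17 from 36451496 to 36451696 (score 25, gap 275 bp), on chromosome 1 from 180248990 to 180249190 (score 23, gap 223 bp), and, with a score of 19 each, on chromosome 18 from 66679815 to 66680015 (gap 385 bp) and on the X chromosome from 166419488 to 166419688 (gap 515 bp).

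Flanking sites were most frequent close to the wide region. The gap ran from 199 to 1999 bp with a median of 778 bp (quartiles 436 and 1282 bp), and 1872 sites (62.0%) lay within 1000 bp. No DNaseI regions anywhere in the list were closer to each other than 199 bp, so the first 250 bp of gap held only 183 sites. The count then was 734 at gaps of 250 to 500 bp, 547 at 500 to 750 bp, 354 at 1000 to 1250 bp and 221 at 1750 to 2000 bp. Beyond the limit it went on falling, from 200 sites at 2000 to 2250 bp to 60 sites at 9750 to 10000 bp, without a step at 2 kb. Regions of intermediate width, which ran from 251 bp to under 500 bp, had a similar profile: 4669 of them, or 22.6%, lay within 2 kb of a wide region, with a median gap of 709 bp. The sites nearest to the limit looked alike on either side of it. Those with gaps of 1999, 1998 and 1996 bp had scores of 8, 9 and 9, and the first 3 narrow sites outside, each with a gap of 2002 bp, had scores of 8, 9 and 8. None of these 6 sites carried a factor.

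**Figure D1:**
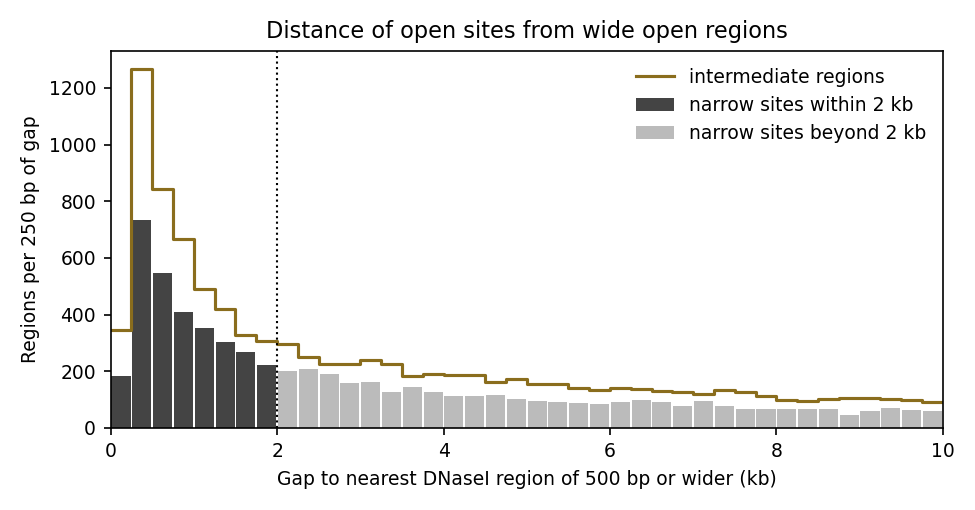
Number of DNaseI regions per 250 bp of gap to the nearest region of 500 bp or wider (x axis, kb), for narrow sites within 2 kb (dark bars), narrow sites beyond 2 kb (light bars) and regions of intermediate width (line). The narrow sites peak at 734 between 250 and 500 bp and become fewer through the 2 kb limit (dotted line), as the wider regions also do.

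The sites lay on either side of wide regions in like numbers. The nearest wide region was at lower coordinates for 1472 flanking sites (48.7%) and at higher coordinates for 1548 (51.3%). No other DNaseI region stood in between for 2619 sites (86.7%), 1 stood in between for 375 (12.4%), and 2 or more for 26. A total of 293 sites (9.70%) had a wide region within 2 kb on each side. On the side away from the nearest wide region, 1076 sites (35.6%) had another DNaseI region within 2 kb.

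Seen from the wide regions, 3011 of 14906, or 20.2% (19.6 to 20.9%), had at least 1 narrow site within 2 kb. Of these, 2616 had 1 site, 353 had 2, 40 had 3, 1 had 4 and 1 had 5. Sites lay on 1 side of 2792 wide regions and on both sides of 219. The share with a narrow site was higher in wider regions. It was 18.1% (17.3 to 18.9%) at 500 to under 750 bp, 20.9% (19.5 to 22.3%) at 750 to under 1000 bp, 23.5% (21.8 to 25.3%) at 1000 to under 1500 bp and 29.0% (26.1 to 32.1%) at 1500 bp or more.

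The wide region with the most narrow sites lay on chromosome 9 from 32513367 to 32514305 (939 bp, score 90) and carried neither factor. Its 5 narrow sites had gaps of 1701, 1089 and 213 bp on the lower side and 550 and 1308 bp on the higher side, with scores of 11, 8, 8, 8 and 10 in that order. The site at 1701 bp lay nearer to another wide region. The second, on chromosome 16 from 10846552 to 10847068 (517 bp, score 28), had 4 narrow sites, at gaps of 1577, 1038 and 206 bp on the lower side and 221 bp on the higher side, and also carried neither factor. Its sites at 1577 and 1038 bp lay nearer to another wide region, which carried both factors. The 8 that followed were the highest-scoring of the 40 wide regions with 3 narrow sites. The first of these 8 lay on chromosome 15 from 66656139 to 66657765 (1627 bp, score 147). It carried 1 HEB and 1 TCF1 region, and its narrow sites, at 673, 311 and 1840 bp, had scores of 8, 8 and 9. The widest of the 10 lay on chromosome 1 from 36647073 to 36649159 (2087 bp), carried 1 HEB region and had sites of scores 10, 11 and 11. On chromosome 8 from 74011960 to 74012686 (727 bp, score 89), a wide region with 1 TCF1 region had all 3 narrow sites on its lower side, at 1604, 721 and 296 bp. Of the other 5, that on chromosome 2 from 166481441 to 166482968 carried TCF1 and that on chromosome 11 from 51748572 to 51750204 carried HEB. No factor was on the remaining 3, which began at 52075222 and ended at 52076813 on chromosome 11, at 144968580 and 144970081 on chromosome 6, and at 36716132 and 36717712 on chromosome 5. Among these 8 regions too, some had a narrow site that lay nearer to another wide region. No narrow site around any of the 10 wide regions carried a factor, and over all flanking sites the share with a factor was 0.795%. Of all 42 wide regions with 3 or more narrow sites, 10 carried TCF1 and 6 carried HEB. Of the 40 with exactly 3 narrow sites, 25% carried TCF1 and 15% carried HEB. Over all wide regions, 14.5% carried TCF1, 8.55% carried HEB and 19.3% carried either factor.

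**Figure D2:**
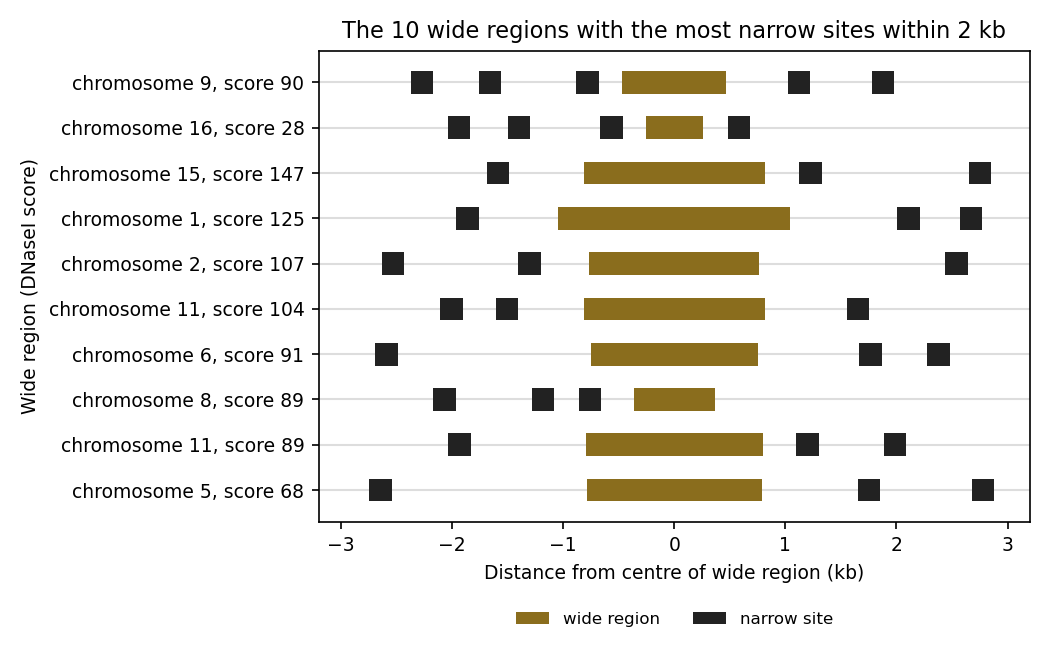
Map of the 10 wide DNaseI regions with the most narrow sites within 2 kb, each drawn to scale around its own centre (x axis, kb), with wide regions in brown and narrow sites in black. The top region has 5 narrow sites, the second has 4 and the others have 3 each. The 8 regions with 3 sites are the highest-scoring of 40 such regions. For some of the sites another wide region, not drawn, was nearer. Narrow sites lie on both sides of 9 regions and on 1 side of the region on chromosome 8.

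Flanking sites seldom carried TCF1 or HEB. TCF1 was found on 10 of 3020 flanking sites, or 0.331% (0.180 to 0.608%), against 6.1% of all DNaseI regions and 90 of 9726 other narrow sites, or 0.925% (0.753 to 1.14%). HEB was found on 15 flanking sites, or 0.497% (0.301 to 0.818%), against 3.43% of all DNaseI regions and 69 other narrow sites, or 0.709% (0.561 to 0.897%). Both factors were on 1 of 3020 flanking sites and on 9 of 9726 other narrow sites, against 1.28% of all DNaseI regions. Among sites of equal width, the TCF1 share was thus lower beside wide regions, with a difference of -0.594 percentage points (interval -0.853 to -0.268). The HEB share was 0.497% against 0.709%, and the interval of that difference, -0.483 to 0.141 points, included 0.

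DNaseI scores were alike in these sets, but the score was also held equal in comparisons chosen after seeing the data. Among narrow sites with a score of 8, TCF1 was on 5 of 1539 flanking sites (0.325%) and on 36 of 4756 others (0.757%), a difference of -0.432 points whose interval, -0.776 to 0.0494, included 0. The TCF1 shares of flanking and other sites were 0.246% and 0.700% at a score of 9, 0% (0 of 345) and 1.26% at 10, and 0.446% and 1.57% at 11. At scores of 12 or more they were 2.02% (2 of 99) and 1.92% (10 of 522), so that the lower share was not seen in the highest-scoring class. With wide regions defined as 1000 bp or wider, TCF1 was on 2 of 884 flanking sites, and the interval of the difference also included 0 (-0.843 to 0.0130 points). When a factor region within 500 bp of the site was counted, which can reach into the wide region, the TCF1 difference was lost (-0.0933 points, -0.554 to 0.455).

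Among narrow sites, the share with a factor was highest more than 50 kb from wide regions. TCF1 was on 1 of 917 (0.109%, 0.0193 to 0.615%) at gaps up to 0.5 kb, on 5 of 955 (0.524%) at 0.5 to 1 kb and on 4 of 1148 (0.348%) at 1 to 2 kb. It was on 5 of 1762 (0.284%) at 2 to 5 kb, 14 of 1513 (0.925%) at 5 to 10 kb, 31 of 3877 (0.800%) at 10 to 50 kb and 40 of 2574 (1.55%, 1.14 to 2.11%) beyond 50 kb. The 2 to 5 kb class, just outside the limit, was as low as the flanking sites. HEB was on 0.327%, 0.419% and 0.697% of the 3 classes of flanking sites, on 0.341%, 0.330% and 0.593% of the classes from 2 to 50 kb, and on 35 of 2574 (1.36%, 0.979 to 1.89%) beyond 50 kb. The difference of flanking sites from the sites beyond 50 kb was -1.22 points for TCF1 (interval -1.80 to -0.727) and -0.863 points for HEB (-1.42 to -0.365). Against the narrow sites 2 to 50 kb away, the TCF1 difference was -0.368 points (-0.636 to -0.0435) and the HEB difference 0.0213 points (-0.250 to 0.370). Both of these reference sets were chosen after seeing the data. The mean DNaseI score of the sites beyond 50 kb was 9.30, against 8.91 for the flanking sites, and its part in the difference was not tested.

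The lower TCF1 share near wide regions was also seen in regions of intermediate width. There, TCF1 was on 92 of 4669 within 2 kb (1.97%, 1.61 to 2.41%) and on 599 of 15998 farther away (3.74%, 3.46 to 4.05%), a difference of -1.77 points (-2.25 to -1.25). HEB was on 63 (1.35%) and 237 (1.48%) of them, with an interval of the difference from -0.487 to 0.280 points, and beyond 50 kb the HEB share of intermediate regions was 1.31%, against 1.49% at gaps up to 0.5 kb. Within 2 kb of a wide region, the narrow sites carried factors less often than the intermediate ones, with differences of -1.64 points for TCF1 (interval -2.10 to -1.18) and -0.853 points for HEB (-1.27 to -0.418). The intermediate regions there were wider (median 310 bp) and had higher scores (median 15, against 8), and the part of width and score in these differences was not tested.

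**Figure D3:**
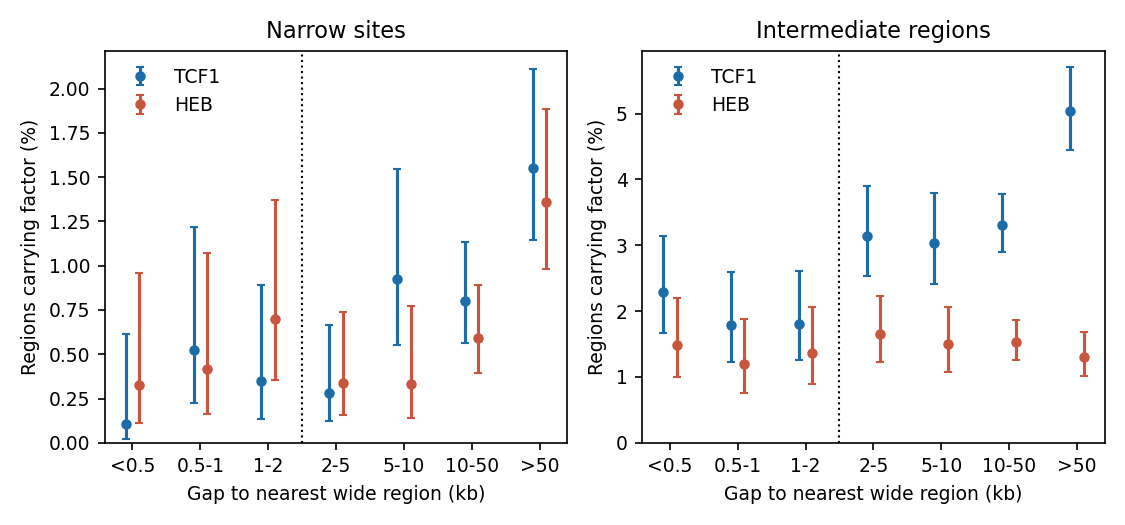
Share of narrow sites (left) and of regions of intermediate width (right) that carried TCF1 (blue) or HEB (red), by gap to the nearest wide region (x axis, kb), with 95% Wilson intervals from counts. The dotted line marks the 2 kb limit, and the 2 panels have different y axes. TCF1 was on 0.109% of narrow sites at the smallest gaps and on 1.55% beyond 50 kb.

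A factor was on 24 flanking sites. The TCF1 regions on them had scores of 8 to 13 with a median of 9.5, against a median of 11 in the whole TCF1 list, and 2 of 10 were above that list median. The HEB regions had scores of 10 to 23 with a median of 11, equal to the median of the whole HEB list, and 4 of 15 were above it. The TCF1 regions overlapped their sites by 12 to 183 bp (median 94 bp) and the HEB regions by 11 to 197 bp (median 145 bp). With an overlap of 50% or more of the shorter region, 5 sites kept TCF1 and 12 kept HEB. The gap to the wide region was at most 1934 bp for these 24 sites, with a median of 942 bp.

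The single flanking site with both factors lay on chromosome 16 from 8745917 to 8746117, with a DNaseI score of 11, a HEB region of score 23 and a TCF1 region of score 12. It stood 1710 bp from a wide region of 934 bp that carried neither factor, and its HEB score was the highest on any flanking site. HEB regions of the next highest scores were on chromosome 3 from 152604579 to 152604779 (HEB score 17), on chromosome 7 from 20537044 to 20537244 and from 71148919 to 71149119 (15 each) and on chromosome 1 from 36364726 to 36364926 (11, the first by position of those at that score). Of these, only the site at 20537044 had a wide neighbour that carried HEB. The highest-scoring TCF1 region on a flanking site, with a score of 13, was on chromosome 13 from 22141648 to 22141848, 558 bp from a wide region of score 102 without a factor. Further TCF1 sites were on chromosome 11 from 96328435 to 96328635 and on chromosome 13 from 34180040 to 34180240 (TCF1 score 11 each) and on chromosome 3 from 95731357 to 95731557 (10). The last stood beside a wide region with a DNaseI score of 204 that carried both factors, the only case in which TCF1 was on a flanking site and on its nearest wide region.

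Factors lay on the wide neighbour far more often than on the flanking site. The nearest wide region carried TCF1 for 509 of 3020 flanking sites (16.9%, 15.6 to 18.2%), HEB for 332 (11%, 9.93 to 12.2%) and either factor for 691 (22.9%, 21.4 to 24.4%). Over all wide regions these shares were 14.5%, 8.55% and 19.3%. The wide neighbours had a median width of 745 bp and a median score of 47. They are wider than the sites by the rule, and the part of width and score in the contrast was not tested. Both members of a pair carried TCF1 in 1 case and HEB in 2 cases. A TCF1 region on the wide neighbour made no detectable difference to TCF1 on the flanking site at these counts, with 1 of 509 (0.196%) against 9 of 2511 (0.358%), a difference of -0.162 points (-0.522 to 0.762). Of the 24 flanking sites with a factor, 5 stood beside a wide region with a factor and 19 beside one with neither. That was close to the split over all flanking sites, of which 22.9% had a wide neighbour with a factor. None of the 293 sites with a wide region on each side carried a factor, against 24 of 2727 (0.880%) with a wide region on 1 side. The count of 0 allows a share of up to 1.02% by the limit of 3 counts (Wilson upper limit 1.29%). It thus does not set the 2 groups apart.

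Around the flanking sites, factor regions were found mainly on the side of the wide region. Each site was oriented with its wide neighbour on the positive side, and centres of factor regions were counted in steps of 200 bp, so that a factor region near several sites counted for each. In the steps centred at 200 to 1600 bp, 345 TCF1 centres lay on the side of the wide region and 33 on the other side, and these counts were 208 and 30 for HEB. The rule itself places a wide region on the positive side, and wide regions carried factors often. This asymmetry was thus built in by the choice of sites and is no separate result about them. The site itself, within 100 bp of its centre, held 12 HEB centres, against 4 and 2 in the steps on either side, and 5 TCF1 centres, against 2 and 4. The gaps between sites and wide regions, 2.67 Mb in all, held 16 TCF1 and 10 HEB centres. Stretches of the same length on the far side of the sites held 10 TCF1 and 14 HEB centres. These counts are small and were given no interval, so no difference between sides or between factors is drawn from them.

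**Figure D4:**
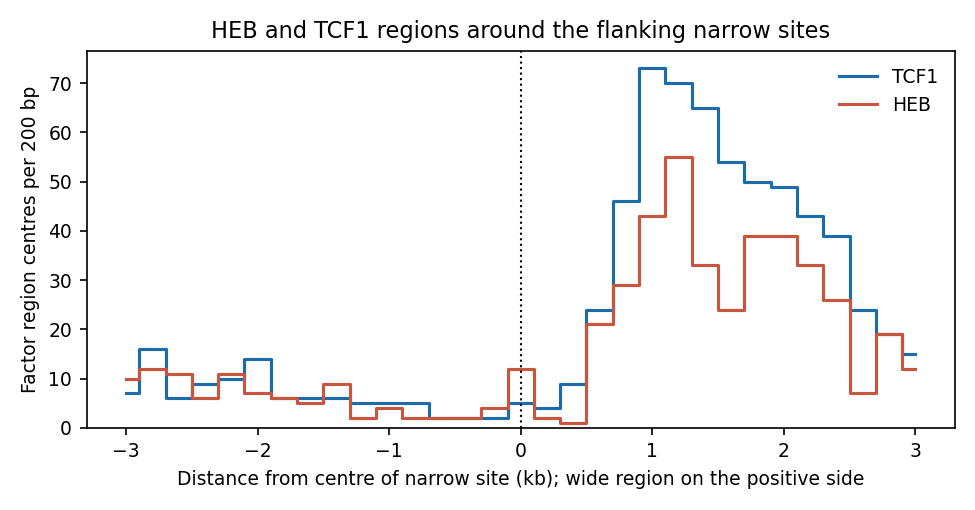
Centres of TCF1 (blue) and HEB (red) regions per 200 bp around the centres of 3020 flanking narrow sites (x axis, kb), with the nearest wide region always on the positive side. TCF1 peaks at 73 centres 1 kb towards the wide region and HEB at 55 centres 1.2 kb towards it. The rule places a wide region on that side, so the excess there is built in. At the narrow site itself there are 5 TCF1 and 12 HEB centres.

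Wide regions with a flanking site carried HEB more often than those without. HEB was on 340 of 3011 wide regions with a narrow site, or 11.3% (10.2 to 12.5%), and on 934 of 11895 without, or 7.85% (7.38 to 8.35%), a difference of 3.44 points (2.25 to 4.71). TCF1 was on 502 (16.7%, 15.4 to 18.0%) and 1654 (13.9%, 13.3 to 14.5%), a difference of 2.77 points (1.33 to 4.27). Wide regions with a narrow site had a median width of 750 bp and a median score of 47, against 698 bp and 43 for the others. Since wider regions carried factors more often, the comparison was repeated within classes of width.

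Within width classes the HEB difference was in the same direction in each of the 4 classes, and its interval left out 0 in 2 of them. HEB was on 5.06% of regions of 500 to under 750 bp with a narrow site and on 4.39% of those without (difference 0.672 points, -0.451 to 1.98). At 750 to under 1000 bp the shares were 11.7% and 8.09% (3.63 points, 1.21 to 6.39), at 1000 to under 1500 bp 16.2% and 13.4% (2.80 points, -0.503 to 6.46) and at 1500 bp or more 36.0% and 28.6% (7.41 points, 0.713 to 14.3). For TCF1 the interval included 0 in all 4 classes, with differences of 0.645, 1.55, 0.364 and 6.31 points from the narrowest class to the widest. The TCF1 difference over all widths was therefore not resolved once width was held within a class. The classes did not make width fully equal. From the narrowest class to the widest, median widths were 605, 854, 1169 and 1842.5 bp with a narrow site and 596, 848, 1158 and 1788 bp without. The DNaseI score was not held equal, and the part of score and remaining width in the HEB difference was not tested.

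**Figure D5:**
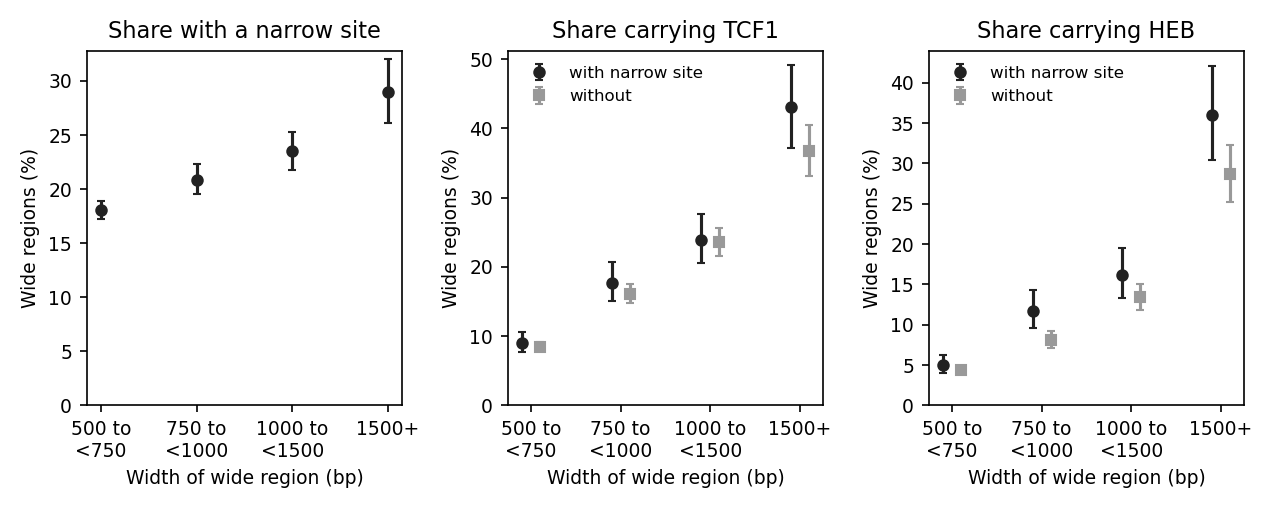
Wide DNaseI regions by width (x axis, bp): the share with a narrow site within 2 kb (left), and the shares that carried TCF1 (middle) and HEB (right) among those with a narrow site (black circles) and without (grey squares), with 95% Wilson intervals. The share with a narrow site goes from 18.1% in the narrowest class to 29.0% in the widest, and HEB at 1500 bp or more was on 36.0% with and 28.6% without a narrow site.

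A flanking region of intermediate width went with HEB as well. Of wide regions with narrow sites as their only neighbours within 2 kb (apart from other wide regions), 10.3% (9.09 to 11.8%) of 2010 carried HEB. With intermediate regions as the only neighbours this was 9.78% (8.82 to 10.8%) of 3395, with both kinds 13.2% (11.2 to 15.4%) of 1001, and with neither 7.08% (6.56 to 7.65%) of 8500. The median widths of these sets were 736, 731, 772 and 687 bp. TCF1 shares were 17.1%, 15.2%, 15.8% and 13.4% in the same order. The higher HEB share was thus seen with neighbours of either kind and was not particular to narrow sites. Width was not held equal in this comparison, and its part was not tested.

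Within wide regions flanked on 1 side, factor regions leaned towards the narrow site. Of 789 factor centres in these regions, 440 lay on the narrow site's side of the midpoint and 349 on the other side, or 55.8% (52.3 to 59.2%) on the near side. The share was 55.9% (50.4 to 61.2%) for 322 HEB centres and 55.7% (51.1 to 60.1%) for 467 TCF1 centres. Counted once per wide region, more TCF1 centres were on the near side in 245 regions and on the other side in 192 (56.1% near, 51.4 to 60.6%), and the HEB counts were 171 and 133 (56.3% near, 50.6 to 61.7%). HEB and TCF1 regions can share a position, so the 2 factors are not independent here. With the gap limited to 1 kb the share over both factors was 53.0%, with an interval that included an even split (48.6 to 57.4%). A gap limit of 5 kb also gave a smaller share, 53.3% (50.5 to 56.1%). The share was 57.1% (52.2 to 61.8%) for wide regions of 1000 bp or wider. With factor scores above each list's median it was 58.0% (53.4 to 62.4%).

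Flanking sites were spread over all autosomes and were rare on the X chromosome. Among autosomes the share of narrow sites that were flanking was lowest on chromosome 14, with 74 of 429 (17.2%, 14.0 to 21.1%), and highest on chromosome 11, with 331 of 1156 (28.6%, 26.1 to 31.3%). Over all autosomes it was 23.8% (23.1 to 24.6%). The X chromosome held 99 narrow sites and 109 wide regions, and 5 of the narrow sites were flanking, or 5.05% (2.18 to 11.3%). Both kinds of region were fewer on X than on any autosome, the lowest being chromosome 18 with 329 and 353. The part of this sparseness in the low share on X was not tested. The share of wide regions with a narrow site was 5.50% (2.55 to 11.5%) on X and 20.3% (19.7 to 21.0%) on autosomes. The 5 sites on X had scores of 8 to 19 and gaps of 280 to 1941 bp. None carried a factor, against 0.795% of all flanking sites.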

How the data were processed

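DNaseI, HEB and TCF1 region lists of DP thymocytes, 1 sample each, were used as deposited by the authors; the H3K9me3 and H3K27ac samples were not analysed here. Each list gives a position and a whole-number score deposited by the authors, with no stated unit, which was compared only within its list. The build mm9 and HOMER 6.1 are named in the submitters' processing notes; the sources used here name no aligner, calling threshold, control or library total. A caller's minimum width or merging distance, if any was set, would decide which sites are narrow and how close neighbours lie.

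Gaps were taken between region ends as the files give them, and printed positions count from 1. Overlap needed at least 1 bp. The members, sets and comparisons were chosen with earlier results of these data known. The regions named were the 10 wide regions with the most narrow sites (ties by score), the 5 highest-scoring flanking sites (6 with a tie), those with both factors, the 5 with the highest-scoring HEB and TCF1 regions, and the 3 nearest to the limit on each side. No annotation or sequence of mm9 was used here, so no gene is named, and the planned look at motifs and GC content was not run. Functions were tested on simulated lists against direct counting. Software was Python 3.11.15 with pandas 2.3.3, scipy 1.17.1, numpy 2.4.6 and matplotlib 3.10.9.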

Additional observations from a re-analysis of the deposited data

How the results depend on the processing

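Of 67 recomputed values, 50 stayed within the interval of the reported value, 14 moved outside it and 3 changed sign. Counting a factor within 500 bp, which can reach into the wide region (the smallest gap was 199 bp), gave 1.49% of flanking sites for TCF1 and 1.46% for HEB, with differences from other narrow sites of -0.0933 points (-0.554 to 0.455) and 0.305 points (-0.131 to 0.835). The TCF1 difference was thus lost, and the HEB difference changed sign. With at least 50% overlap the TCF1 share was 0.166%. With factor scores above each list's median the shares were 0.0662% for TCF1 (2 sites) and 0.132% for HEB (4 sites), and the TCF1 difference was -0.253 points (-0.394 to -0.0539). Under that setting the HEB difference was -0.269 points (-0.436 to -0.0347), and with a gap limit of 5 kb it was -0.352 points (-0.619 to -0.0635), so both intervals left out 0. Against sites 2 to 50 kb away the HEB difference changed sign, at 0.0213 points. The HEB difference between wide regions with and without a narrow site was 4.80 points with a gap limit of 5 kb and 5.18 points for wide regions of 1000 bp or more. At that width the TCF1 difference was 3.05 points (-0.512 to 6.75). The share of wide regions with a narrow site was 12.4% at 1 kb, 34.3% at 5 kb and 25% for wide regions of 1000 bp or more, as the changed limits imply. The TCF1 difference was -1.26 points (-2.10 to -0.0474) at a DNaseI score of 10 and -1.12 points (-2.33 to 1.03) at 11. It changed sign at scores of 12 or more (0.104 points, -2.05 to 5.23). The comparisons by DNaseI score, with 1 site per wide region and with sites 2 to 50 kb away were added after seeing the data. No paired analysis was possible because each assay had 1 sample. Depth is unknown, and the few factor-carrying sites (10 and 15) limit every share of flanking sites.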
